A study of Mus musculus with 2 samples.

Results

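A set of 10 genes that serve the defence of the gastric mucosa were followed in sorted pyloric cells of the mouse: Dmbt1, Pigr, Lcn2, Duox2, Duoxa2, Nox1, Slpi, Wfdc2, Plac8 and Reg3g. They were taken by gene name from the array files and were represented by 11 probes of 10 genes, with 1 probe for each gene and a further probe for Slpi. After flagged spots were left out, the array held 41059 probes of 27680 genes. The genes were chosen by their measured ratios and detection on these same arrays, so the values are a description and carry no test. The mice were Lgr5-EGFP-ires-CreERT2 knock-ins, whose green fluorescent protein (GFP) is made from the locus of the Wnt pathway receptor gene Lgr5. Pyloric tissue of 20 stomachs from 20 mice was pooled, dissociated with trypsin and sorted by flow cytometry into cells with high GFP (GFPhigh) and cells with low GFP (GFPlow). Both groups carry the knock-in allele, no treatment is given in the labels, and neither the age of the mice nor a wild-type or GFP-negative group was part of the comparison. RNA of both populations was hybridised together on 2 Agilent arrays with the dyes exchanged, so that Cy3 marked GFPhigh on array 1 and GFPlow on array 2. As the labels give each population 1 RNA sample, both arrays measure the same replicate, no p-value is given, and every SD holds technical error only. In pooled RNA, fewer cells that express a gene and less RNA of that gene in each cell cannot be told apart.

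The gastric epithelium defends its surface by several routes. Secreted proteins bind or kill bacteria, protease inhibitors limit digestion of the tissue, and oxidases at the apical membrane form hydrogen peroxide. Antibodies made by plasma cells below the epithelium are carried through it into the lumen. Many of these genes are induced in gut epithelium during infection through the transcription factors NF-kB and STAT3.

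Ratios are given as log2 of GFPhigh over GFPlow, so that a positive value is higher in GFPhigh, with mean ± SD over the 2 arrays. Levels are normalized log2 intensities of 1 probe in 1 channel and are compared between populations for the same probe or, for marker lists, for the linear sum over the same probes. A gene counted as measured when on each array its brighter population was well above background, which held for 7831 of 27680 genes, or 28.3%. The GFPhigh channel had 28.6% and the GFPlow channel 25.1% of gene spots well above background on array 1. On array 2 the GFPhigh channel had 18.7% and the GFPlow channel 31.7%. Across the 7831 genes, which share the same RNA and are not independent, the ratios of the 2 arrays had a Pearson correlation of 0.597 and a Spearman correlation of 0.473, and the SD of their difference was 0.57. Lgr5 checked the sort, with ratios of 2.33 on array 1 and 2.24 on array 2, while a further Lgr5 probe stayed at background in all 4 channels.

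Of the 10 genes, 5 were measured, and their ratios lay far apart. Dmbt1 and Plac8 were at least 2-fold lower in GFPhigh on both arrays and Pigr at least 2-fold higher, while Wfdc2 and Reg3g did not reach 2-fold on both. By the same rule 2.69% of all 7831 genes measured were lower in GFPhigh, 1.76% were higher and 4.46% were either. Since these ratios chose the genes, nothing is read from their count against those shares. The median ratio of the 5 measured genes was -0.42, with 0.0011 on array 1 and -0.84 on array 2, beside -0.06 over all genes measured. That median is the value of Wfdc2, and Reg3g entered through GFPhigh alone. The other 5 genes, Lcn2, Duox2, Duoxa2, Nox1 and Slpi, were not well above background in any channel.

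**Figure D1:**
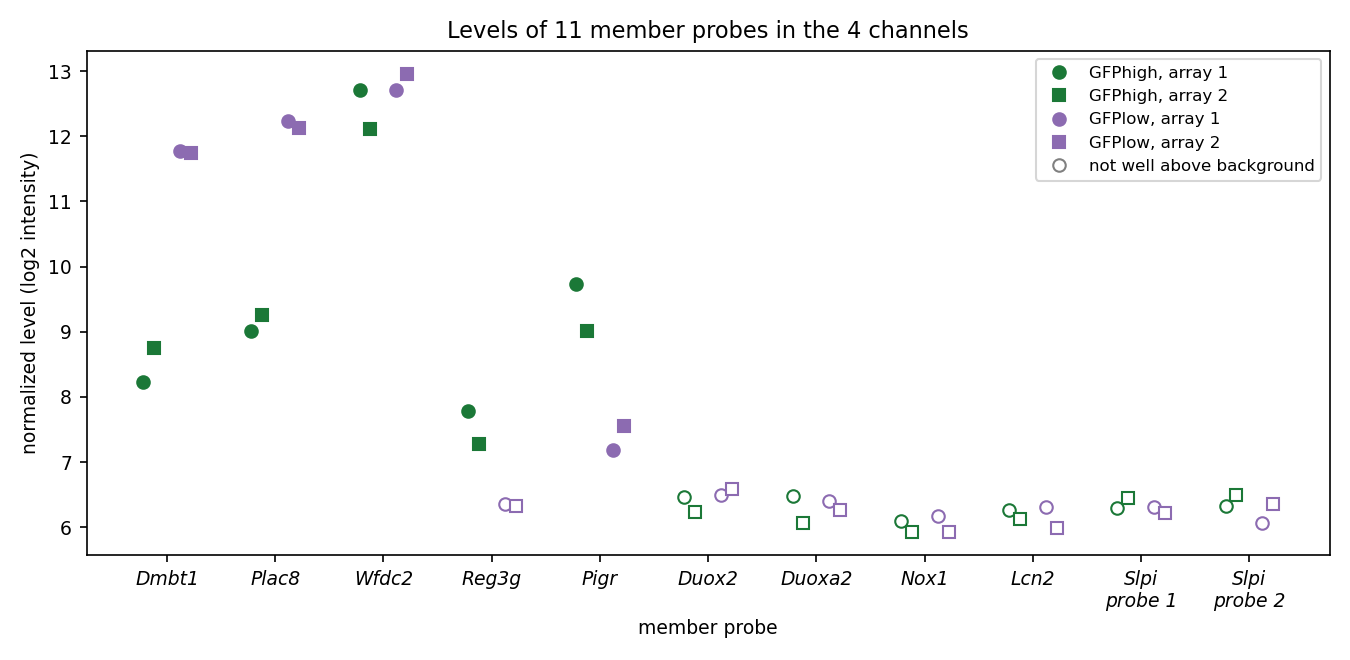
Normalized level (log2 intensity) of each of the 11 probes in the 4 channels, with GFPhigh in green and GFPlow in purple, circles for array 1 and squares for array 2; open symbols are not well above background. Dmbt1 and Plac8 separate with GFPhigh below, Pigr and Reg3g with GFPhigh above, and the 6 probes on the right lie between 5.92 and 6.58 in every channel.

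The first 30 of the 60 bases of each probe behind a measured gene are shown in lower case, because each value below reads the stretch of transcript that its probe binds, which these letters begin.
Dmbt1: aaatgcttagccaagaacaatgagatggca
Plac8: atgggatggatccatttaattagagaacgg
Pigr: tcatgattttcagatgagaagagatgtttc
Reg3g: gagtacagaattgacatcatgggttgatat
Wfdc2: ttcttcctggtccgatgaaagcatctcctt
In mm9, the genome build given in the array files, the Dmbt1 probe lies at chr7:138264863-138264922 on the plus strand and the Plac8 probe at chr5:100982870-100982929 on the minus strand. The Pigr probe lies at chr1:132748041-132748100 on the plus strand, the Reg3g probe at chr6:78416420-78416479 on the minus strand and the Wfdc2 probe at chr2:164393935-164393994 on the plus strand. An annotation for mm9 was not used here, and the exon or UTR of each probe is not given.

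Dmbt1 encodes a large secreted glycoprotein with scavenger receptor domains that binds bacteria and viruses in mucosal fluids. Its level was 8.22 and 8.76 in GFPhigh on arrays 1 and 2, against 11.77 and 11.75 in GFPlow. All 4 readings were well above background. The ratio was -3.54 on array 1 and -2.99 on array 2 and averaged -3.27 ± 0.39, so that Dmbt1 was 9.63-fold higher in GFPlow. Only 1 of 7831 genes measured had a lower mean ratio. The unnormalized mean signals were 380.7 and 313.8 in GFPhigh and 3262 and 6574 in GFPlow, where the negative control spots, which match no transcript, had medians of 107.8 and 172.1 in the GFPhigh channels and 170.5 and 111.9 in the GFPlow channels. The difference in Dmbt1 was therefore already present before background correction and normalization.

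Plac8 encodes a small cysteine-rich protein; mouse neutrophils that lack it kill bacteria poorly. Its level was 9.01 and 9.26 in GFPhigh, against 12.24 and 12.12 in GFPlow. As for Dmbt1, the GFPlow readings lay close together. The ratio was -3.23 on array 1 and -2.86 on array 2, with a mean of -3.04 ± 0.26, and Plac8 was 8.24-fold higher in GFPlow. It ranked 8 from the lowest of all genes measured, and its raw signals were 634.3 and 397.2 in GFPhigh and 4472 and 8712 in GFPlow.

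Markers of the surface mucous cells, or pit cells, that cover the gastric surface were lower in GFPhigh together with Dmbt1 and Plac8. All 5 markers on the array were measured, of which 4 were at least 2-fold lower in GFPhigh on both arrays, with a median ratio of -2.33. The gastrokine Gkn2 was at -3.24 ± 0.55, the trefoil peptide Tff1 at -3.20 ± 1.12 and the surface mucin Muc5ac at -2.33 ± 0.37, and the gastrokine Gkn1 was at least 3.07-fold higher in GFPlow. The summed linear level of the list was 18000 and 26640 in GFPhigh and 253000 and 157000 in GFPlow, and Gkn1 was not well above background in GFPhigh on either array. Tff1 and Gkn2, the brightest, make up most of this sum, which says little of the other markers. The part of these cells in the low ratios of Dmbt1 and Plac8 was not tested.

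Pigr, the receptor that carries polymeric immunoglobulin A through epithelial cells, lay on the opposite side. Its level was 9.74 and 9.02 in GFPhigh, against 7.18 and 7.55 in GFPlow. All 4 readings were well above background. The ratio was 2.55 on array 1 and 1.47 on array 2, with a mean of 2.01 ± 0.77, or 4.03-fold higher in GFPhigh, and it ranked 24 from the highest of all genes measured. The spread between the arrays was wider than for Dmbt1 and Plac8. After centring on the array median its mean ratio was 1.53, and after centring on spike-in RNA 1.23, and in neither case did both arrays reach 2-fold. Raw signals were 998.2 and 417.8 in GFPhigh and 230.1 and 339.8 in GFPlow, and the reading of 230.1 lay within the range of the negative control spots of its channel, whose highest was 328.2, though above their 95th percentile of 184.3.

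Gland mucous and neck cell markers were higher in GFPhigh together with Pigr. All 6 on the array were measured and 4 reached 2-fold towards GFPhigh on each array, with a median of 2.28. They were the pepsinogen gene Pgc at 3.22 ± 0.69, the gastrokine Gkn3 at 2.96 ± 1.51, the water channel Aqp5 at 2.72 ± 0.92 and the secretory transcription factor Creb3l4 at 1.84 ± 0.41. Tff2, at 0.95 on array 1 and 2.68 on array 2, and Muc6, at 1.26 and 0.86, each fell short of 2-fold on 1 array. The summed linear level of the list was 676700 and 1201000 in GFPhigh and 221200 and 111500 in GFPlow, and all 6 were well above background in both populations. Gkn3 and Tff2, the brightest, make up most of this sum, which says little of the other markers. The part of these cells in the high ratio of Pigr was not tested.

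Most genes of plasma cells, which make the antibodies that Pigr carries, gave no signal above background in either population. Of 7 genes of immunoglobulin A transport and plasma cells on the array Pigr alone was measured, beside 28.3% of all genes. The absence of plasma cells cannot be read from these counts. The joining chain gene Jchain, the immunoglobulin A heavy chain gene Igha, the plasma cell gene Mzb1 and the plasma cell attractant Ccl28 were not well above background in any channel. Of 8 plasma and B cell markers 6 were likewise not above background. The 2 measured, Sdc1 at -0.34 ± 0.71 and Pou2af1 at 0.06 ± 0.33, did not reach 2-fold.

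**Figure D2:**
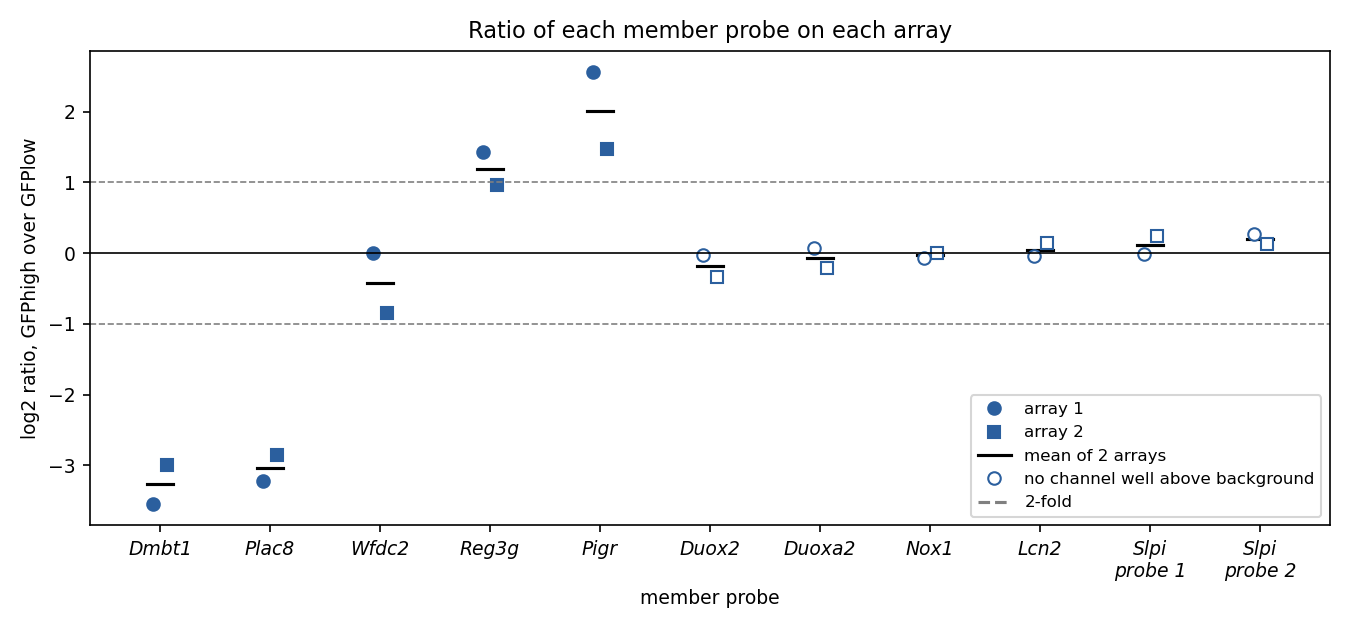
Log2 ratio of GFPhigh over GFPlow for each of the 11 probes on array 1 (circles) and array 2 (squares), with the mean of both as a bar and dashed lines at 2-fold; open symbols have no channel well above background. Dmbt1 and Plac8 lie below the lower line and Pigr above the upper line on both arrays, Reg3g straddles the upper line at 1.43 and 0.95, and the open symbols stay between -0.34 and 0.26.

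Reg3g encodes a secreted C-type lectin that binds bacterial peptidoglycan and kills Gram-positive bacteria. Its level was 7.79 and 7.28 in GFPhigh, against 6.36 and 6.33 in GFPlow. Both GFPhigh readings were well above background and neither GFPlow reading was. The GFPlow raw signals of 170.7 and 133.8 compare with negative control medians of 170.5 and 111.9 in the same channels, and the GFPhigh raw signals of 266.3 and 234.1 with medians of 107.8 and 172.1. The GFPhigh reading of 234.1 on array 2 was above the 95th percentile of the negative control spots of its channel, 187.4, but within their range, whose highest was 242, and the bound below rests in part on it. The ratio was 1.43 on array 1 and 0.95 on array 2, with a mean of 1.19 ± 0.34. Because GFPlow was dim, the ratio is a bound, and under the reported processing Reg3g was at least 1.89-fold higher in GFPhigh. It was 1 of 10 genes among 7831 with both GFPhigh readings and no GFPlow reading well above background, while 244 genes showed the opposite pattern. Detection differed between the channels, with 18.7% of gene spots well above background in GFPhigh and 31.7% in GFPlow on array 2. On array 1 these shares were 28.6% and 25.1%. The part of this difference in the counts was not tested. From the scanner software's own processed signals the ratio of Reg3g was 3.31 and it passed 2-fold on both arrays. The ratio was 0.75 without background correction and 0.41 after spike-in centring, so the bound does not hold under these alternatives.

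Lcn2, which encodes a protein that withholds iron from bacteria by binding their siderophores, had raw signals of 110.1 and 166.1 in GFPhigh and 172.3 and 100.4 in GFPlow. All 4 lay under the 95th percentile of the negative control spots. Its probe is placed at chr2:32241037-32241281 on the minus strand, a span of 245 bases for 60 probe bases, and begins as follows.
Lcn2: ggtatttttccgaaagacttctgaaaacaa
A level of Lcn2 was therefore not detectable at this signal in either population, and no difference between them could be measured.

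Besides Reg3g and Lcn2, the list of antimicrobial proteins and lectins held 29 genes on the array, of which 5 were measured, or 17.2%, beside 28.3% of all genes. In 19 no channel was well above background, among them the lysozymes Lyz1 and Lyz2, the lectin Reg3a and the neutrophil proteins S100a8, S100a9 and Ltf. On both arrays 0 were at least 2-fold higher and 2 at least 2-fold lower in GFPhigh, beside 1.76% and 2.69% of all genes measured. The median was -0.32 for the 5, which was 0.05 with Reg3g included. Lgals4, a galectin of gut epithelium that binds sugar chains, was at -2.71 ± 0.40. Its levels were 10.02 and 9.80 in GFPhigh and 12.45 and 12.80 in GFPlow. Lypd8, which in the mouse colon keeps flagellated bacteria off the epithelium, was well above background only in GFPlow, so its ratio is a bound, and it was at least 2.43-fold higher in GFPlow. Bpifb1, a secreted protein of the family of the bactericidal permeability-increasing protein, was at 0.59 ± 0.07 and did not reach 2-fold. Reg1 and Reg3b, relatives of Reg3g, were above background in some channel but were not measured by the rule.

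Wfdc2 and Slpi carry the whey acidic protein domain that is found in many small protease inhibitors. Wfdc2 was well above background in every channel, with levels of 12.71 and 12.12 in GFPhigh and 12.71 and 12.96 in GFPlow. The populations differed little on array 1 and were apart on array 2, where GFPhigh was lower. Its ratio was 0.0011 on array 1 and -0.84 on array 2 and averaged -0.42 ± 0.60, so that the difference was smaller than its SD. Dye orientation and array changed together, so neither can be told from the other in this spread.

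Slpi, an inhibitor of neutrophil elastase made by mucosal surfaces, was not well above background with either of its 2 probes, at chr2:164185063-164185122 and chr2:164179849-164179908 on the minus strand. The first probe had raw signals of 110.5 and 186.6 in GFPhigh and 175.4 and 110 in GFPlow. The second had 114.3 and 187 in GFPhigh and 178 and 118.5 in GFPlow. Both lay under the 95th percentile of the negative control spots in all channels.

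Among 18 genes of protease inhibitors on the array, Wfdc2 and Slpi included, 8 were measured, of which 1 reached 2-fold towards GFPhigh and 1 towards GFPlow on both arrays, with a median of -0.08. Of all genes measured, 1.76% were higher and 2.69% lower in GFPhigh. Wfdc18, a further protein with a whey acidic protein domain, was at 1.87 ± 0.11, with levels of 10.93 and 10.78 in GFPhigh and 8.97 and 8.98 in GFPlow. Spink4, a Kazal-type inhibitor known from goblet cells, was at -1.40 ± 0.39. Wfdc15b was at 0.80 ± 0.82 and the cystatin gene Cst3 at 0.56 ± 0.59, both under 2-fold on at least 1 array.

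Duox2 encodes a dual oxidase that releases hydrogen peroxide at the apical surface, and Duoxa2 the partner that it needs to leave the endoplasmic reticulum. The Duox2 probe at chr2:122108679-122108738 on the minus strand had raw signals of 123.9 and 178.3 in GFPhigh and 182.6 and 136.6 in GFPlow. The Duoxa2 probe at chr2:122128112-122128171 on the plus strand had 118.7 and 166.2 in GFPhigh and 182.2 and 113.6 in GFPlow. Neither was well above background in any channel, although 2 readings of Duox2 were above the 95th percentile of the negative controls.

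Nox1 encodes an oxidase known from colon epithelium that forms superoxide. Its probe at chrX:130627582-130627641 on the minus strand had raw signals of 100.3 and 161.8 in GFPhigh and 169.7 and 93.45 in GFPlow, all under the 95th percentile of the negative controls. Over the 6 probes of the 5 genes without signal, 22 of 24 readings were under that percentile and 24 of 24 within the range of the 153 negative control spots of each channel. Their ratios ran from -0.34 to 0.26 and are ratios of background.

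Of the partners of Nox1, Noxo1, Noxa1 and Rac1 were measured, where Nox1 was not detectable. Noxo1, the organiser subunit of the Nox1 complex, had levels of 11.77 and 11.57 in GFPhigh and 10.57 and 10.33 in GFPlow. The ratio of 1.20 on array 1 and 1.24 on array 2 gave a mean of 1.22 ± 0.03, or 2.33-fold higher in GFPhigh. The activator subunit gene Noxa1 was at 0.36 ± 0.07, and the small GTPase genes Rac2 and Rac1 at 0.25 ± 0.55 and 0.20 ± 0.45. Of 16 genes of NADPH oxidases and their partners on the array, with Nox1, Duox2 and Duoxa2 among them, 4 were measured, 1 of them at least 2-fold higher in GFPhigh and 0 at least 2-fold lower, with a median of 0.31. Beside these counts, 28.3% of all genes were measured, and of those 1.76% were higher and 2.69% lower. In 11 no channel was well above background, among them Nox3, Nox4, Duox1, Duoxa1 and the phagocyte oxidase gene Cybb. Cyba was above background in some channel but was not measured by the rule.

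Enzymes that remove hydrogen peroxide were measured in 11 of 12 cases. None was at least 2-fold apart on both arrays, beside 4.46% of all genes measured, and nothing is read from this. Their median was 0.06. Txnrd1, which reduces thioredoxin, was at -0.87 ± 0.90 and thioredoxin itself, Txn1, at -0.77 ± 0.56. Catalase, Cat, was at 0.76 ± 0.52 and the glutathione peroxidase gene Gpx1 at -0.39 ± 0.50.

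**Figure D3:**
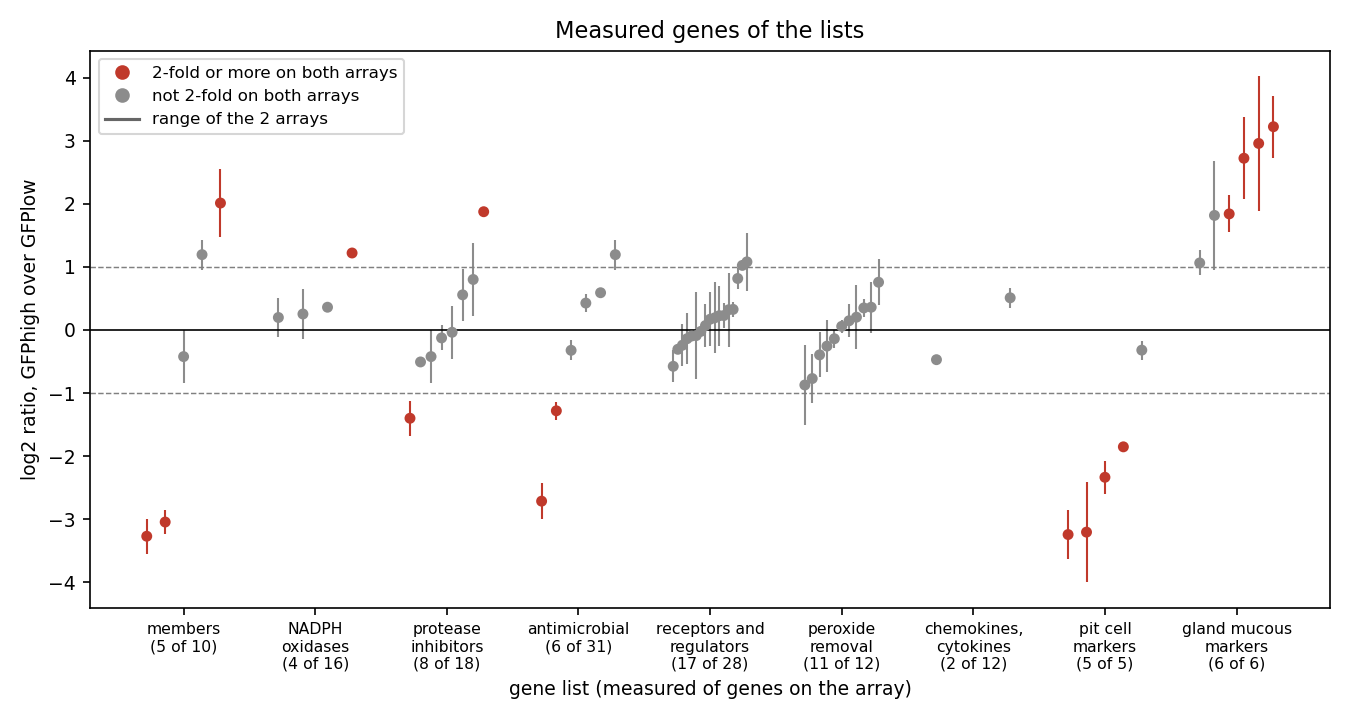
Log2 ratio of GFPhigh over GFPlow for every measured gene of the defence lists and of the pit and gland mucous cell markers; points are means of 2 arrays, lines span both arrays, and red marks at least 2-fold on both. The receptors and regulators and the peroxide removing enzymes hold no red point, while the pit cell markers have 4 below and the gland mucous markers 4 above the dashed lines. Of all genes measured, 4.46% were at least 2-fold apart on both arrays.

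Receptors for bacterial products and cytokines and the regulators of NF-kB and STAT3 were measured in part. Of 28 on the array 17 were measured, and the median was 0.17. None was at least 2-fold apart on both arrays in either direction, beside 4.46% of all genes measured. At that share a list of this size could well hold none, and nothing is read from it. In 8 no channel was well above background, namely the Toll-like receptor genes Tlr1, Tlr2, Tlr3, Tlr4 and Tlr5, and Il17ra, Il22ra1 and Nfkb1. Nod2, Relb and Tnfaip3 were above background in some channel but were not measured by the rule. Nfkbia, the inhibitor that holds NF-kB in the cytoplasm and is itself an NF-kB target, was at 0.62 on array 1 and 1.54 on array 2, with a mean of 1.08 ± 0.65. Stat3 was at 0.9985 on array 1, just short of 2-fold, and 1.05 on array 2, with a mean of 1.02 ± 0.04. Its levels were 10.46 and 10.52 in GFPhigh and 9.46 and 9.47 in GFPlow. Nod1, a receptor for peptidoglycan fragments, was at 0.82 ± 0.23, and Il10rb, a receptor subunit shared by several cytokines, at -0.58 ± 0.35.

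Of 12 epithelial chemokines and cytokines 2 were measured and neither was at least 2-fold apart. Over all genes 28.3% were measured, and 4.46% of those were at least 2-fold apart on both arrays. The alarmin Il33 was at 0.51 ± 0.23 and Il18 at -0.47 ± 0.06. The neutrophil attractants Cxcl1, Cxcl2 and Cxcl5 were not well above background in any channel.

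Markers of white blood cells and connective tissue were mostly not above background in either population. Over all genes on the array only 28.3% were measured, so the absence of these cells cannot be read from the counts. None of 9 neutrophil markers was above background in any channel, and of 12 leukocyte markers 1 was measured, the receptor chain gene Fcer1g at -0.12 ± 0.35. The summed linear level of the leukocyte list was 1115 and 1094 in GFPhigh and 1160 and 1067 in GFPlow, and that of the neutrophil list 675.6 and 707.9 in GFPhigh and 667.8 and 690.3 in GFPlow, sums made up mostly of background readings. Of 6 fibroblast markers Col1a2 was measured, at 0.60 ± 0.75. All 7 epithelial markers were measured and well above background in both populations. Their median was -0.19, and 1 of them, the keratin gene Krt19, was at least 2-fold lower in GFPhigh, at -2.24 ± 0.04.

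**Figure D4:**
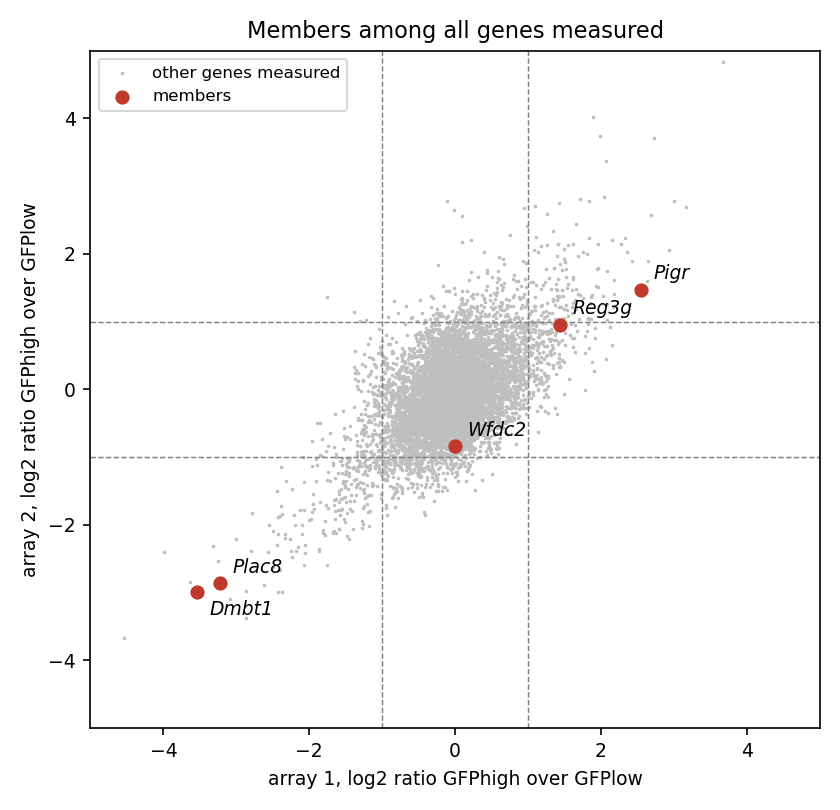
Log2 ratio of GFPhigh over GFPlow on array 1 (horizontal) against array 2 (vertical) for the 7831 genes measured, with the 5 measured defence genes in red and dashed lines at 2-fold. Dmbt1 and Plac8 lie at the lower left end of the cloud, Pigr towards the upper right, Reg3g just under the 2-fold line of array 2, and Wfdc2 within the cloud.

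Promoter sequences were available from RefSeq (build GRCm38.p6) for 9 of the 10 genes, in 11 entries, and not for Dmbt1. The 250 bases before each start were searched on both strands for the NF-kB motif and for the STAT motif TTCNNNGAA. The NF-kB motif was found in 2 genes, Reg3g and Nox1, and in 3.90% of all 32841 promoters searched. At Reg3g it lay 123 to 114 bases before the start and matched on both strands over the same bases, and at Nox1 it lay 91 to 82 bases before the start. The STAT motif was found in none of the 11 entries and in 7.02% of all promoters. A match shows only that these letters are present in the window.

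The promoters of Pigr and Plac8, the genes of the table with the largest ratio in each direction, and of Reg3g, which holds a match, are shown 5′ to 3′ on the strand of the gene, with capitals marking the NF-kB motif.
Pigr: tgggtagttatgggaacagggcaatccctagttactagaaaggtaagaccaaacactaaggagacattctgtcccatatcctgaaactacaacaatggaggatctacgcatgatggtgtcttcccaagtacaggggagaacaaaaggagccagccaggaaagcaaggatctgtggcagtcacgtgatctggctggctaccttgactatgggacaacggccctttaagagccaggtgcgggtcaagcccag
Plac8: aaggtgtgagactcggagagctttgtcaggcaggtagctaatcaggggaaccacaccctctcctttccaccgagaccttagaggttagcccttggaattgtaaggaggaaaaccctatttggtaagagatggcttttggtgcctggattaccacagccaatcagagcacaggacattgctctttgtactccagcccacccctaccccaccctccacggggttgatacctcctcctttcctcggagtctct
Reg3g: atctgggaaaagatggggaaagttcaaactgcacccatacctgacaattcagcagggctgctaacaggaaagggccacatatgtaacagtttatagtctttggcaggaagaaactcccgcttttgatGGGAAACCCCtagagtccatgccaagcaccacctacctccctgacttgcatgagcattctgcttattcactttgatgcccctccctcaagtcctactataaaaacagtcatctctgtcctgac
In GRCm38.p6 these are chr1:130826434-130826683 on the plus strand for Pigr, chr5:100572206-100572455 on the minus strand for 1 of 2 listed starts of Plac8, and chr6:78468875-78469124 on the minus strand for Reg3g.

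The ratios of Dmbt1, Plac8, Pigr and Reg3g kept their side of 0 under every alternative computed. Dmbt1 ran from -4.05 to -2.99 and Plac8 from -3.83 to -2.86 over 13 alternatives. Both were called lower in GFPhigh in all 13, where the changed threshold counted at 1.5-fold. The alternatives of filter, flags, probe rule and threshold left both ratios unchanged and could not remove either call. Single arrays could not remove it either, since the call already needs each array. Only the alternatives of background correction, signals, value table and centring could have done so. Pigr ran from 1.23 to 3.13 and Reg3g from 0.41 to 3.31, with 12 alternatives for Reg3g. Wfdc2 ran from -1.31 to 0.0011. Centring on the array median moved the median of all genes to -0.49 and spike-in centring moved it to -0.81, so higher and lower are relative to the average gene. Against 138 genes higher and 211 lower in GFPhigh as reported, the first centring gave 10 and 215 and the second 21 and 1642.

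**Figure D5:**
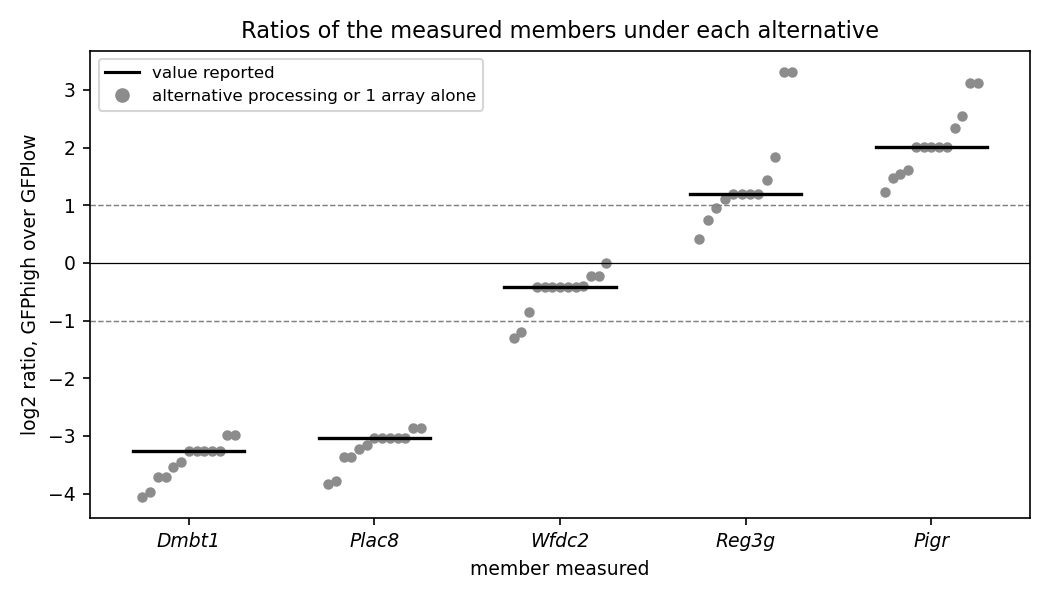
Log2 ratio of GFPhigh over GFPlow of the 5 measured genes as reported (bars) and under each alternative processing or on 1 array alone (points), with dashed lines at 2-fold. The points of Dmbt1 and Plac8 all lie below the lower line, those of Pigr all above the upper line, and those of Reg3g spread from 0.41 to 3.31.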

How the data were processed

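Expression was measured in 2 RNA pools on 2 dye-swapped arrays. The authors deposited scanner output with mean intensity and local background intensity per spot and channel, besides processed intensity, which per the file headers is background-subtracted and dye-normalized. The deposited log10 ratio is Cy5 over Cy3, per the file headers, and a deposited value table gives them as GFPhigh over GFPlow, within 0.0050 of the scanner values, with column medians of 0.0188 and -0.0458 and empty where the scanner ratio was 0. The headers name Feature Extraction 10.5.1.1, the submitters' processing notes version 9.5.3.

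With limma 3.58.1 in R 4.3.3, mean intensities were corrected (normexp, offset 50, which pulls dim ratios towards 0) and loess-normalized within each array, control spots at weight 0. Levels per channel followed Aquantile normalization, without balanced swaps within an array, and are open to dye bias. Of 43379 gene spots, 240 and 251 were left out as non-uniform or population outliers on arrays 1 and 2, and 0 were saturated. Each gene took its measured probe of highest average signal. Of all probes 25022 were named by accession, 6322 by symbol and 1632 by older symbol in a RefSeq table (names and gene order only). The other 8083 kept their name in the array files, and each such name counted as a gene. For a bound, the dim population's level on each array was raised to the lowest level well above background where it lay under it, and the means were compared. Each bound applies to the reported processing only. Steps were tested on simulated data.

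The members and lists were chosen with earlier results of these data known. Named were all members, Lgr5 and, per list, up to 4 measured genes with the largest absolute mean ratio, and genes not measured are named only for that. The number of arrays limits precision. Alternatives covered background correction, signals, centring, filter, flags, probe rule, threshold, value table and single arrays, and spike-in centring was added after seeing the data. With a common slide and scan, no batch could be compared.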

Additional observations from a re-analysis of the deposited data

How the results depend on the processing

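The count of 2 members lower in GFPhigh, Dmbt1 and Plac8, was the same in all 13 alternatives. Those of filter, flags, probe rule, threshold and single arrays could not have removed either gene. The count of 1 member higher in GFPhigh became 2, with Reg3g, under normexp with offset 10, the processed signals, the value table and a threshold of 1.5-fold, and 0 under centring on the array median and under spike-in centring. On single arrays it was 1 to 2, with Reg3g counted on array 1 alone. Without a filter on dim probes 10 members counted as measured, 5 of them at background. The members' median was -1.31 with array-median centring, -1.21 with spike-in centring and -1.73 with both populations required above background, which removed Reg3g, and it ran from -0.84 to 0.0011 on single arrays. Over all genes, 211 lower and 138 higher became 511 and 352 with processed signals, 508 and 352 with the value table, 588 and 438 at 1.5-fold, and 1642 and 21 with spike-in centring. Array-median centring gave 215 lower and 10 higher genes, and the filter on both populations 139 lower ones. Single arrays gave 397 to 497 lower and 348 to 370 higher genes, since 1 array has to pass in place of 2. Apart from the changes in threshold, filter and number of arrays, the cause was not tested. No paired analysis was possible because the numbered samples are 2 arrays of the same 2 RNA pools and no group comparison was tested. The signal over background limits what can be said of Lcn2, Duox2, Duoxa2, Nox1 and Slpi, and Reg3g was dim in GFPlow.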

Other observations

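Gene order around the members was read from the RefSeq table, with no coordinates. Duox2, Duoxa2, Duoxa1 and Duox1 follow each other on chromosome 2, and none was measured. Sord, the sorbitol dehydrogenase gene next to Duox2, was measured and higher in GFPhigh, at 2.09 on array 1 and 1.75 on array 2; it was chosen after its values were seen. Of the genes beside Plac8, which was 8.24-fold higher in GFPlow, Cops4 was at -0.04 on array 1 and -1.01 on array 2 and Coq2 at -0.01 and 0.01. The direct neighbours of Dmbt1, Pigr and Reg3g were not measured or not on the array. The 4 genes nearest to Lcn2, Ciz1, 1110008P14Rik, Ptges2 and Slc25a25, were all measured, and none was at least 2-fold apart on both arrays.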
